A study of Mus musculus with 15 samples.

Results

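The interferon-gamma inducible GTPases described here were 10 genes of 2 protein families, the guanylate-binding proteins Gbp2, Gbp3, Gbp5, Gbp7 and Gbp9 and the immunity-related GTPases Igtp, Irgm1, Irgm2, Iigp1 and Ifi47. They were taken by name, after the Ensembl identifiers of the gene counts had been matched to symbols, and all 10 were found among the 55416 identifiers. RNA was sequenced from the whole blood of C57BL/6 mice, drawn from the cheek, in 15 libraries that fell into 3 groups of 5. By their titles, 5 libraries came from mice that received αCTLA-4 and an early neck dissection (ND), 5 from mice that received αCTLA-4 and a late ND, and 5 from untreated mice with neither. The study asked how removal of the lymph nodes of the neck, and its timing, bears on the response to this checkpoint antibody.

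The labels of all 15 libraries carry the same tumor protocol, in which 4MOSC1 cells (a line of mouse oral cancer with a tobacco mutation signature) were placed in the tongue of wild-type mice and grown for 10 days. The protocol names 2 doses of αCTLA-4 ahead of either ND. Whether the untreated mice also carried tumors is not given in words of their own, so treatment, surgery and tumor cannot be told apart in comparisons with them. The paper places the blood draw before the late ND in one passage and after it in another, so late ND names a group of mice below, whichever holds, and whether these mice had undergone surgery when bled is not settled by the sources used here.

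Guanylate-binding proteins (GBPs) and immunity-related GTPases (IRGs) are among the most strongly induced gene products of cells exposed to interferon-gamma. The cytokine, made mainly by T cells and NK cells, binds a receptor of the subunits Ifngr1 and Ifngr2 and signals through kinases of the JAK family to transcription factors that bind GAS elements and induce further factors such as Irf1, which bind interferon-stimulated response elements (ISRE). GBPs and IRGs gather on the vacuoles of intracellular bacteria and parasites and help to break them, and many of them also respond to type I interferon.

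Start-site sequence is shown as a description of the genes. Whether it bears on their levels in these libraries was not tested. In RefSeq's table of promoters (build GRCm38.p6, 250 bases before to 50 bases after each annotated start), 8 of the 10 genes had an entry, all but Gbp9 and Iigp1. An ISRE, searched as GAAA, 2 free bases and GAAA, or on the other strand as TTTC, 2 free bases and TTTC, was present in 7 of the 8 genes and in 3.99% of the 27025 genes in the table. A GAS element, searched as TTC, 3 free bases and GAA, which reads the same on both strands, was present in 4 of the 8 genes and in 9.55% of all genes. These 4 genes, Gbp5, Gbp7, Igtp and Irgm2, held both motifs, as did 0.54% of all genes. Neither run of letters occurred in the window of Ifi47. A match is a run of letters and not a measured binding site. The stretch around the motifs is printed for each of the 7 genes, 5′ to 3′ on the strand of the gene, with the motif letters in capitals.
Gbp2 (chr3:142620592-142620625): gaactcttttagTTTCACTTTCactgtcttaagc
Gbp3 (chr3:142559987-142560026): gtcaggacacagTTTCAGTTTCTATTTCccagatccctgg
Gbp5 (chr3:142496684-142496902): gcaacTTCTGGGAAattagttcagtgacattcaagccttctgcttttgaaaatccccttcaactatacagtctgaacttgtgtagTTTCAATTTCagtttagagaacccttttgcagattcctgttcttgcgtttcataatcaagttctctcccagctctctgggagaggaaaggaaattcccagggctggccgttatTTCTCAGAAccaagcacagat
Gbp7 (chr3:142530218-142530304): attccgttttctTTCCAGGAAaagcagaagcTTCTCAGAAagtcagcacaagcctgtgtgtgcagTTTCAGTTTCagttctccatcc
Igtp (chr11:58199499-58199543): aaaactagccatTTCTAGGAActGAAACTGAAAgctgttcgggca
Irgm2 (chr11:58214890-58214934): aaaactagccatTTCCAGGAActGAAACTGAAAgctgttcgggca
Irgm1 (chr11:48871423-48871462, minus strand): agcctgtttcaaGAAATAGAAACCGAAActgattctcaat

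In 6 of the 7 genes the first base of every ISRE lay between 24 and 64 bases before the annotated start, and in Gbp5 it lay 165 bases before it. The capitals of Gbp3 and Irgm1 mark 2 overlapping ISRE matches each, and no ISRE overlapped a GAS element. In Igtp and Irgm2 a GAS element stood directly before the ISRE, separated from it by the letters ct. The printed stretches of these 2 neighbors differed at 1 of 45 bases, T16C, counted from 1 at the 5′ end with the base of Igtp first, which falls in the 3 free positions of the GAS element. Their whole windows were 68.1% identical over the 270 bases that could be aligned without a gap, against at most 34.9% for every other pair of the 8 genes.

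The 10 genes lay in a few clusters of the mouse genome (GRCm39), and all are annotated as protein coding. Gbp5 (ENSMUSG00000105504, chr3:142199739-142228105), Gbp7 (ENSMUSG00000040253, chr3:142236044-142255910), Gbp3 (ENSMUSG00000028268, chr3:142265731-142278979) and Gbp2 (ENSMUSG00000028270, chr3:142326349-142343779) stood in a row on the plus strand within 144 kb. Gbp9 (ENSMUSG00000029298, chr5:105224332-105287452, minus strand) belongs to the second mouse GBP cluster. Of the IRG genes, Irgm1 (ENSMUSG00000046879, chr11:48752795-48763164, minus strand), Ifi47 (ENSMUSG00000078920, chr11:48967412-48987813, plus strand), Igtp (ENSMUSG00000078853, chr11:58089840-58098417, plus strand) and Irgm2 (ENSMUSG00000069874, chr11:58090444-58113615, plus strand) lay on chromosome 11. Iigp1 (ENSMUSG00000054072, chr18:60506680-60525706, plus strand) stood apart from them. Igtp and Irgm2 overlapped over 7974 bases of the same strand, but only 162 of the overlapping bases were exonic in both, 3.55% of the exon bases of Igtp and 4.33% of those of Irgm2. Gbp7 shared 10.6% of its exon bases with the gene model Gm43802, the largest such share of the 10. For the other 7 genes the exon bases shared with any gene on the same strand came to at most 3.9%, and the strand setting of the counting is not given in the sources used here.

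All 10 GTPase genes had counts in each of the 15 libraries. Per kilobase of exon, with read counts per 1e6 counts (CPM) scaled between libraries by the trimmed mean of M values (TMM), Gbp2 had the highest level at 19.2 ± 9.71 RPKM (SD, n = 15). It was followed by Ifi47 at 17.1 ± 6.28 RPKM, Igtp at 16.7 ± 5.04 RPKM and Irgm2 at 14.1 ± 3.97 RPKM. The first 3 could not be put in a firm order, since Gbp2 lay above Ifi47 in 7 of 15 libraries and Ifi47 above Igtp in 7 of 15. A step followed, as Irgm2 lay above the next gene, Gbp7 (7.23 ± 2.61 RPKM), in 15 of 15 libraries. Gbp7 and Irgm1 (6.85 ± 2.46 RPKM) were again close, with Gbp7 higher in 9 of 15 libraries. Irgm1 lay above Gbp9 (5.16 ± 1.65 RPKM) in 14 of 15 and Gbp9 above Gbp3 (4.51 ± 1.68 RPKM) in 11 of 15 libraries. Gbp5 (1.92 ± 0.763 RPKM) and Iigp1 (0.598 ± 0.314 RPKM) were the lowest, each below the gene ranked before it in 15 of 15 libraries. Iigp1 rested on 2 to 61 counts per library, and its values carry the largest counting error of the 10.

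Blood held between 5527108 and 13924361 gene counts per library, with medians of 6266684 in untreated, 6727311 in early ND and 10929570 in late ND mice. Hemoglobin genes took 31.6% to 61.7% of the counts in untreated, 38.3% to 64.1% in early ND and 14.9% to 29.3% in late ND libraries, a lower share in every late ND library than in any other. The 18S ribosomal transcript Rn18s-rs5 stayed under 1000 CPM in 3 libraries, which were untreated 2 and late 2 and 3. The number of GTPase genes called, and the calls among the interferon lists, are therefore also given without them.

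**Figure D1:**
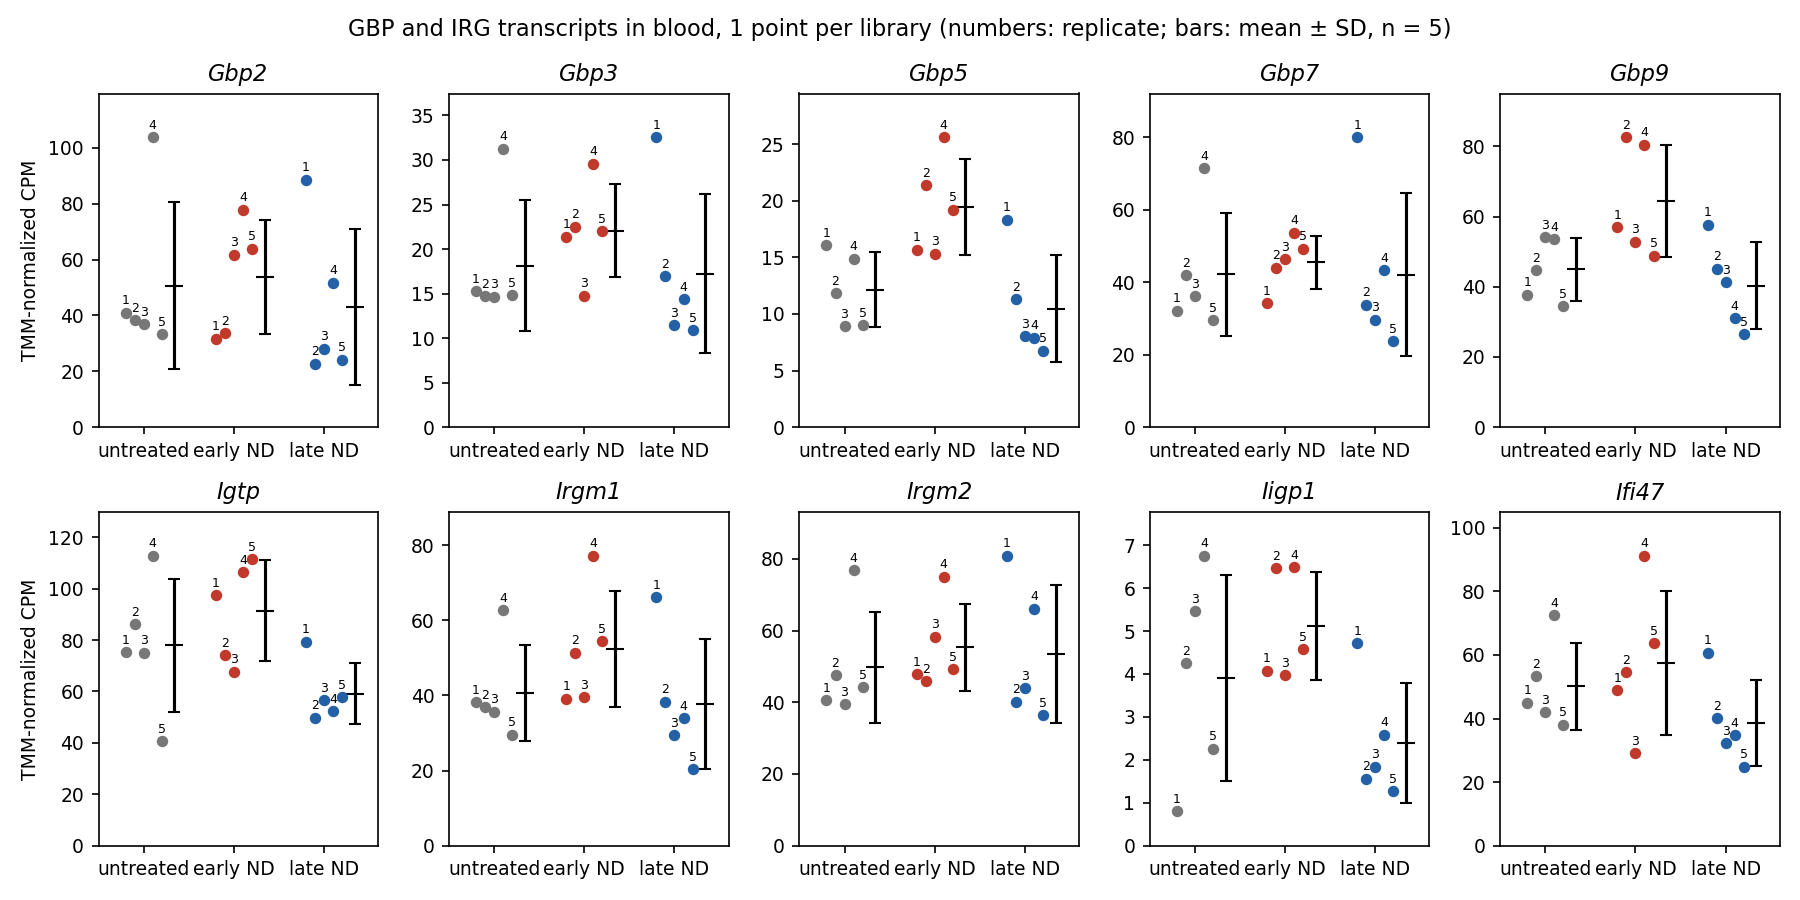
TMM-normalized CPM (linear axis from 0) of the 10 GTPase genes in each library. Points are libraries with their replicate number, in gray for untreated, red for early ND and blue for late ND, and the bars give the mean ± SD of 5 libraries. In each panel the early ND mean is the highest of the 3, and late 1 lies above the other 4 late ND libraries.

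The early ND group had the highest mean CPM of the 3 groups for 10 of the 10 genes, and the late ND group the lowest for 9 of the 10. By medians the order early ND, untreated, late ND was found in 10 of 10. The shares of all genes with these orders are not given here. The 10 genes varied together from library to library, so they are not 10 independent results. The groups were nonetheless broad and overlapped for every one of the genes. The coefficient of variation within a group ran from 16.0% to 39.5% (median 24.3%) in early ND, from 19.9% to 61.4% (median 32.4%) in untreated and from 19.9% to 65.0% (median 45.5%) in late ND mice. In whole blood, fewer cells of a type and less RNA per cell cannot be told apart.

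The GBP with the clearest difference between the ND groups was Gbp5, which promotes assembly of the NLRP3 inflammasome. Its levels were 15.7, 21.4, 15.3, 25.6 and 19.2 CPM in early ND replicates 1 to 5 and 18.3, 11.3, 8.02, 7.90 and 6.76 CPM in late ND replicates 1 to 5. Untreated replicates 1 to 5 had 16.1, 11.8, 8.92, 14.9 and 9.03 CPM. Late 2 to late 5 lay below every early ND library, while late 1 lay within the early ND range. Late against early ND gave a log2 fold change of -0.85 (standard error 0.26) and, in edgeR's quasi-likelihood test, an adjusted p of 0.0718, which missed the threshold of 0.05.

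Gbp9 had the same layout of libraries. It stood at 56.9, 82.6, 52.8, 80.5 and 48.9 CPM in early ND, at 57.7, 45.2, 41.3, 31.0 and 26.5 CPM in late ND and at 37.8, 44.7, 54.1, 53.6 and 34.5 CPM in untreated replicates 1 to 5. Again late 2 to late 5 were below all early ND libraries, and late 1 was inside their range. The log2 fold change was -0.64 (standard error 0.22, edgeR's adjusted p = 0.101).

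Gbp2, which coats the vacuoles of intracellular pathogens, was the most uneven member of the family. Early ND replicates 1 to 5 had 31.7, 33.6, 61.7, 77.9 and 64.0 CPM, late ND replicates 88.6, 22.8, 28.2, 51.7 and 24.2 CPM, and untreated replicates 41.0, 38.4, 36.8, 103.9 and 33.4 CPM. A single library of the untreated group, untreated 4, and a single one of the late ND group, late 1, held the 2 highest values of all 15. With a log2 fold change of -0.30 (95% confidence interval -1.13 to 0.53), the data allow either direction for late against early ND.

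Gbp3 and Gbp7, the neighbors of Gbp2 on chromosome 3, had groups that overlapped widely. Gbp3 ran from 14.8 to 29.6 CPM (median 22.0) in early ND, from 10.9 to 32.6 (median 14.4) in late ND and from 14.7 to 31.3 (median 14.8) in untreated mice. Gbp7 ran from 34.3 to 53.8 CPM (median 46.4) in early ND, from 23.8 to 80.1 (median 33.8) in late ND and from 29.5 to 71.5 (median 36.2) in untreated mice. For both genes the late ND range spanned the whole early ND range. Their log2 fold changes of late against early ND were -0.32 (95% confidence interval -0.94 to 0.30) for Gbp3 and -0.09 (-0.69 to 0.52) for Gbp7.

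Among the IRGs, Igtp, Irgm1 and Irgm2 are the regulators, which sit on host membranes and hold the effector IRGs in check there. Igtp, also called Irgm3, had 97.6, 74.2, 67.7, 106.4 and 111.5 CPM in early ND and 79.4, 49.8, 56.7, 52.2 and 57.7 CPM in late ND replicates 1 to 5. In untreated replicates 1 to 5 it had 75.2, 86.2, 75.1, 112.9 and 40.8 CPM. Late 2 to late 5 were once more below all early ND libraries and late 1 was not. Igtp had the smallest adjusted p of the 10 genes for late against early ND, 0.0594 in edgeR's test, at a log2 fold change of -0.60 (standard error 0.17).

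Irgm2, which begins within the span of Igtp, had no such layout. Its levels were 47.9, 45.9, 58.3, 75.0 and 49.3 CPM in early ND, 80.9, 40.2, 44.0, 66.1 and 36.4 CPM in late ND and 40.6, 47.6, 39.4, 76.9 and 44.2 CPM in untreated replicates 1 to 5. Late ND libraries lay on both sides of the early ND range, and the log2 fold change was -0.02 (95% confidence interval -0.50 to 0.46). Whether the changes of Igtp and Irgm2 differ from each other was not tested. Irgm1 lay between 39.1 and 77.2 CPM (median 51.4) in early ND, between 20.3 and 66.2 (median 34.0) in late ND and between 29.5 and 62.7 (median 36.8) in untreated mice. For Irgm1, too, late 2 to late 5 were below every early ND library, with a log2 fold change of -0.44 (standard error 0.28, edgeR's adjusted p = 0.379).

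Iigp1 and Ifi47, also called Irga6 and Irgd, are effector IRGs. Iigp1 was at 4.08, 6.46, 3.97, 6.49 and 4.58 CPM in early ND, at 4.72, 1.56, 1.84, 2.58 and 1.26 CPM in late ND and at 0.804, 4.25, 5.47, 6.76 and 2.26 CPM in untreated replicates 1 to 5. It had the largest fold change of the 10 genes, with a log2 value of -1.08 for late against early ND (standard error 0.34, edgeR's adjusted p = 0.0817). Late 1 was the one late ND library inside the early ND range. Ifi47 ran from 29.1 to 91.3 CPM (median 54.7) in early ND, from 24.9 to 60.7 (median 34.7) in late ND and from 38.0 to 72.5 (median 45.0) in untreated mice. Because early 3 was low for this gene, only 1 late ND library lay below all early ND libraries, and the log2 fold change was -0.54 (standard error 0.28, edgeR's adjusted p = 0.273).

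Taken over all genes, edgeR's test of late against early ND called 663 of 13315 genes at an adjusted p under 0.05, or 4.98%, and 0 of the 10 GTPase genes. At an unadjusted p under 0.05, 4 of the 10 were lower in late ND, where 9.33% of all genes were. DESeq2's Wald test called 4 of the 10, all lower in late ND, with adjusted p of 0.0211 for Gbp5, 0.0425 for Gbp9, 0.0136 for Igtp and 0.0262 for Iigp1. The share of all genes that DESeq2 called is not given here, so these 4 cannot be set beside it. The log2 fold change was below 0 in 10 of 10 GTPase genes, with a median of -0.49, where 48.2% of all genes were below 0 and their median was 0.01. The median was -0.32 over the 5 GBPs and -0.54 over the 5 IRGs. No gene of the 10 had its late ND libraries all below its early ND libraries, a layout found in 2.93% of all genes tested.

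The number of GTPase genes called changed with the libraries and the method used. Late 1 was the highest of the late ND group in 10 of 10 genes. Late 2 to late 5 were all below every early ND library in 5 of 10 (Gbp5, Gbp9, Igtp, Irgm1 and Iigp1). Late 1 was set apart after its values in these genes were seen. The share of all genes with that layout is not given here, so the 5 genes are only a description. Without late 1, edgeR called 3 of the 10 genes lower in late ND (Gbp5, Igtp and Iigp1, with log2 fold changes of -1.17, -0.76 and -1.48), 9 had an unadjusted p under 0.05, and the median was -0.76. Leaving out the highest late ND library of these genes lowers their late ND mean by construction. Without early 3, edgeR called 2, Gbp5 (-0.92) and Igtp (-0.69). Early 3 was the lowest early ND library for both genes, so leaving it out raises their early ND mean by construction. Over the 10 fits with 1 library left out, 0 to 3 of the genes were called and the median ran from -0.76 to -0.30. The shares of all genes called in these fits are not given here. Without the libraries poor in 18S sequence, which leave 3 late ND mice, 0 were called, 3 had an unadjusted p under 0.05, and the median was -0.44. With the hemoglobin share of each library as a covariate, 0 were called and the median turned to 0.70. That share does not overlap between the ND groups, so it and the groups cannot be told apart.

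**Figure D2:**
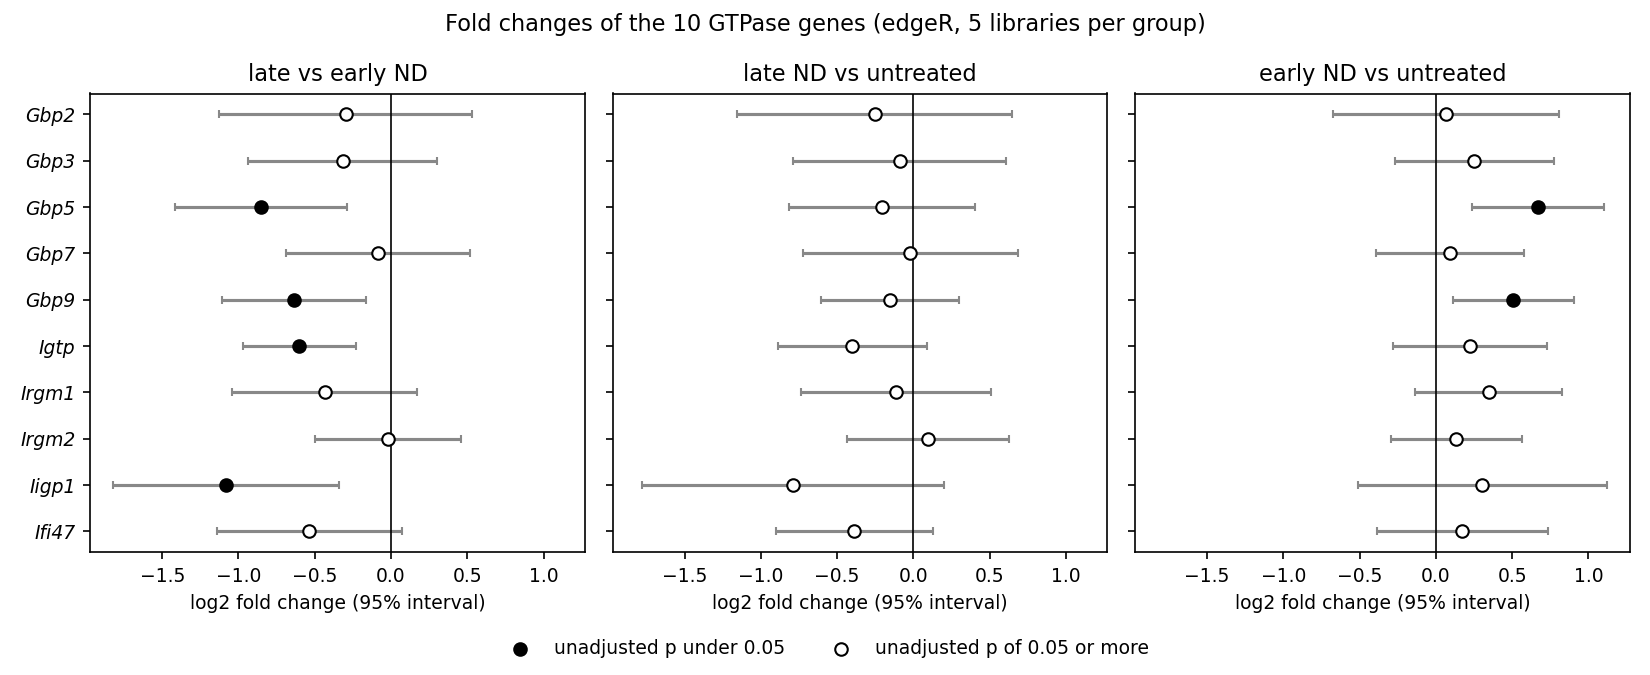
log2 fold changes of the 10 GTPase genes with 95% confidence intervals from edgeR, for late against early ND, late ND against untreated and early ND against untreated (left to right). Filled points have an unadjusted p under 0.05, as 4, 0 and 2 genes did, and no gene passed after adjustment over all genes.

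Late ND and early ND were each also set against the untreated group, which both comparisons share. For late ND against untreated, edgeR called 406 of 13547 genes (3%) and 0 of the 10 GTPase genes, with 0 of them at an unadjusted p under 0.05 (17% of all genes), and DESeq2 called 0. Here 9 of 10 log2 fold changes were below 0 (49.6% of all genes), and their median was -0.18. The values farthest from 0 were -0.79 for Iigp1 (standard error 0.46, edgeR's adjusted p = 0.422) and -0.40 for Igtp (standard error 0.22, edgeR's adjusted p = 0.406), and Irgm2 stood at 0.09. Without the libraries poor in 18S sequence, 0 were called and the median was -0.12. The untreated group held its own high library, as untreated 4 was the highest of the 5 in 8 of the 10 genes.

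For early ND against untreated, edgeR called 0 of 12151 genes (0%) and so none of the GTPase genes, with DESeq2 also at 0. At an unadjusted p under 0.05, 2 of the 10 were higher in early ND, where 2.11% of all genes were, namely Gbp5 at a log2 fold change of 0.67 (95% confidence interval 0.24 to 1.10) and Gbp9 at 0.51 (0.12 to 0.90). All 10 log2 fold changes were above 0 (49.6% of all genes), with a median of 0.24. Without untreated 4, 6 of the 10 had an unadjusted p under 0.05 and the median was 0.53. Untreated 4 was the highest untreated library in 8 of the 10, so leaving it out raises their values in this comparison by construction. The share of all genes in that fit is not given here. Without untreated 2, the one library of these groups poor in 18S sequence, 0 were called, 2 had an unadjusted p under 0.05 and the median was 0.23.

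**Figure D3:**
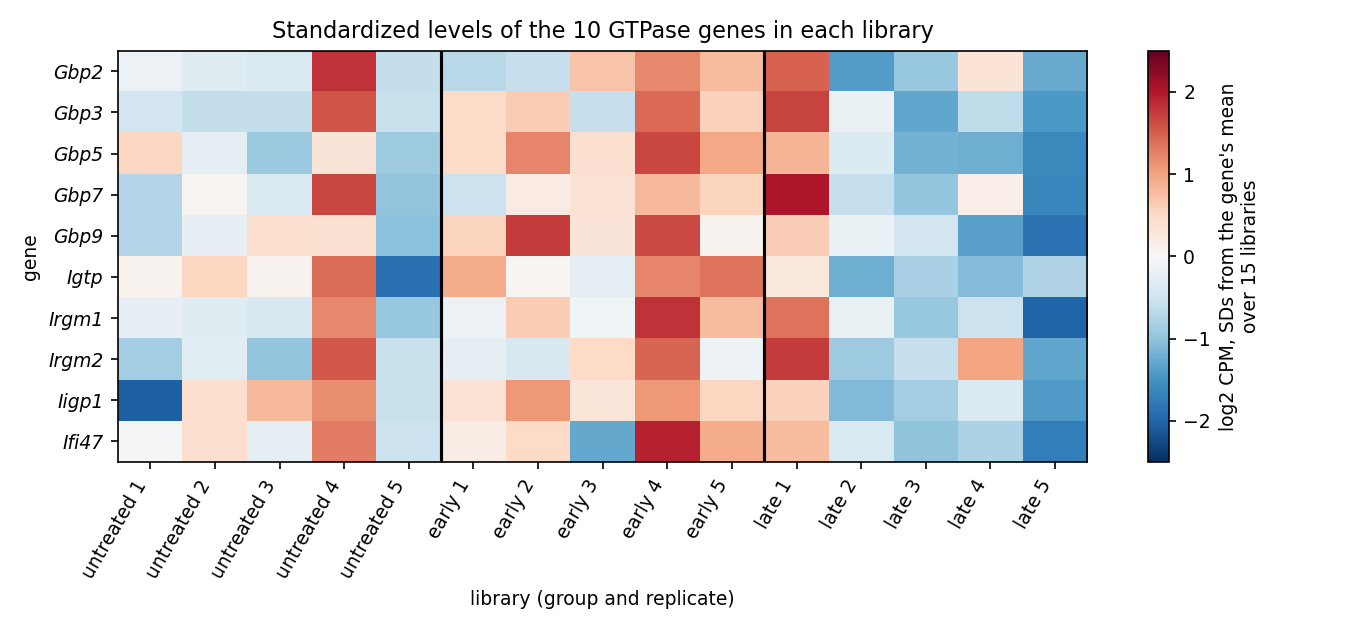
Standardized log2 CPM of the 10 GTPase genes (rows) in the 15 libraries (columns, by group and replicate), as standard deviations from each gene's mean over the 15. Red is above and blue below that mean. Untreated 4, early 4 and late 1 are red across nearly all genes, and late 5 is blue across all.

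From library to library the levels of the 10 genes varied together. Their pairwise Pearson correlations of log2 CPM over the 15 libraries ran from 0.40 (Gbp2 with Gbp9) to 0.94 (Gbp3 with Irgm1), with a median of 0.71 over 45 pairs. After the group means were removed, the median was 0.66. Pairs on the same chromosome and other pairs had similar values, at a median of 0.74 over 12 pairs against 0.70 over 33 pairs. The points of these correlations share library, sequencing depth and cell composition, and they are given as a description.

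Averaged over the 10 genes, each standardized over the 15 libraries, the libraries stood at -0.47, -0.05, -0.26, 1.24 and -0.85 standard deviations in untreated replicates 1 to 5. Early ND replicates 1 to 5 stood at 0.13, 0.51, 0.04, 1.43 and 0.64, and late ND replicates at 1.14, -0.65, -0.91, -0.45 and -1.50. The high libraries were thus 1 in each group, untreated 4, early 4 and late 1, and the lowest of all was late 5, which had the lowest value of the 15 in 7 of the 10 genes. All 5 early ND libraries were above 0, against 1 of 5 in each of the other groups.

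Among 9510 genes with a mean of at least 5 CPM, the one whose level most resembled this average over the 15 libraries was Gm12250. This IRG gene, also called Irgb10, had a Pearson correlation of 0.98, followed by Xaf1 (0.96), Zbp1 (0.96), a sensor of left-handed nucleic acid, Ifit3 (0.95), Ifit3b (0.94), Slfn8 (0.94), Gvin2 (0.93), H2-T24 (0.93) and Herc6 (0.92). Within groups these correlations were 0.92 to 0.98.

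Interferon-gamma signaling, 1 of the pathways that can induce such GTPases, was read from a list of 13 genes, of which 12 passed the filter on low counts. Ifng itself did not pass, with 0 to 7 counts per library and group means of 0.08 ± 0.08 CPM in untreated, 0.35 ± 0.37 CPM in early ND and 0.14 ± 0.12 CPM in late ND mice (SD, n = 5). Blood at this depth therefore gave no usable measure of the cytokine's own transcript. Late ND was higher than early ND for both receptor subunits. Ifngr1 had 134.7 ± 22.8 CPM in late ND and 91.8 ± 11.7 CPM in early ND (log2 fold change 0.57, standard error 0.14, edgeR's adjusted p = 0.0392), with 4 of 5 late ND libraries above all early ND libraries. Ifngr2 had 68.5 ± 10.7 CPM and 48.2 ± 6.30 CPM (log2 fold change 0.53, standard error 0.13, edgeR's adjusted p = 0.0423), with 5 of 5 above. The 0 lower and 2 higher genes of 12 stand beside 2.48% and 2.5% of all genes. Monocyte genes were also higher in late ND, as 2 of 8 (Csf1r and Cd68) were called. The summed level of the 8 was 985.6 to 1544 CPM in late ND and 603.8 to 1321 CPM in early ND, with none of the 8 at 0. At an unadjusted p under 0.05 in edgeR's test, 4 of 8 monocyte genes and 8 of 10 neutrophil genes were higher, with medians of 0.51 and 1.09. Of all 13315 genes tested, 1921 were. The part of monocytes and neutrophils in the receptor result was not tested.

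Irf1, a factor that binds ISRE motifs, stood at 96.4 ± 9.96 CPM in early ND, 101.3 ± 23.2 CPM in late ND and 93.4 ± 20.1 CPM in untreated mice (log2 fold change of late against early ND 0.10, edgeR's adjusted p = 0.763). Ciita, the master regulator of MHC class II genes, stood at 99.3 ± 16.3, 87.5 ± 21.8 and 89.3 ± 26.8 CPM in the same order (-0.15, edgeR's adjusted p = 0.68). Neither regulator passed the test in edgeR.

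Other genes of the same GTPase families included genes that passed the test. Of the 16 with an identifier, 12 were tested for late against early ND, 2 were called lower and 0 higher, 12 of 12 log2 fold changes were below 0, and their median was -0.57. Gbp6 had 1.98 ± 0.799 CPM in late ND and 4.60 ± 0.655 CPM in early ND (log2 fold change -1.20, standard error 0.26, edgeR's adjusted p = 0.0277). Tgtp1, an effector IRG, had 3.63 ± 0.666 CPM and 7.87 ± 2.79 CPM (-1.07, standard error 0.24, edgeR's adjusted p = 0.0293). Every late ND library, late 1 included, lay below every early ND library for both. Gbp6 has a near copy in Gbp10 and Tgtp1 in Tgtp2, and reads that fit both copies could be lost or split in the counting, so the counts of these 2 genes are uncertain.

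Of 17 tested targets of interferon-gamma outside the GTPase families, 1 was lower and 0 were higher in late ND, with a median log2 fold change of -0.11. The gene called was Cd274, which encodes the checkpoint ligand PD-L1, with 23.6 ± 3.88 CPM in late ND and 38.2 ± 1.99 CPM in early ND (log2 fold change -0.67, standard error 0.11, edgeR's adjusted p = 0.0126), and its late ND libraries were all below its early ND libraries. Untreated libraries had 26.6 ± 5.62 CPM of Cd274. Of 14 tested targets of type I interferon, 11 had a log2 fold change below 0 and 3 above, with a median of -0.55. Where 2.48% of all genes were called lower, 3 of the 14 were lower and 0 higher. They were the antiviral genes Rsad2 (log2 fold change -2.61, standard error 0.46), Isg15 (-2.38, standard error 0.53) and Ifit2 (-0.89, standard error 0.20), with edgeR's adjusted p of 0.013, 0.0285 and 0.0292.

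**Figure D4:**
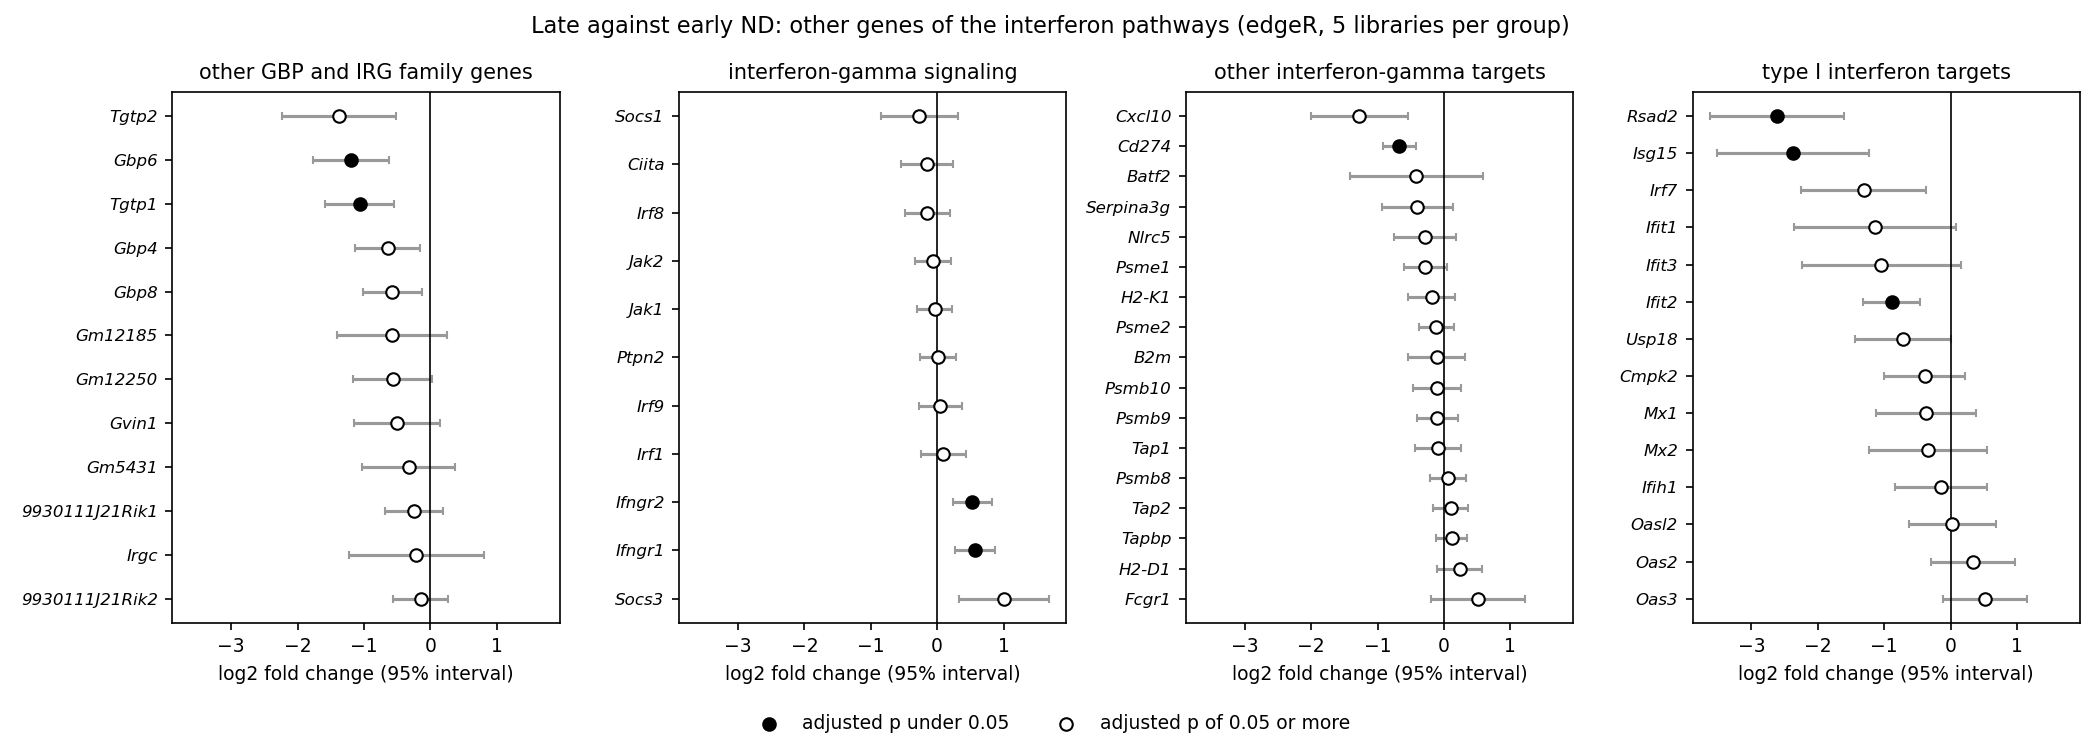
log2 fold changes of late against early ND, with 95% confidence intervals from edgeR, for tested genes of 4 lists: other GBP and IRG genes, interferon-gamma signaling, other interferon-gamma targets and type I interferon targets. Filled points have an adjusted p under 0.05 (2, 2, 1 and 3 genes); the points of the family list all lie to the left of 0, while intervals of some cross it.

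The 8 called genes of these lists depended on the libraries used. DESeq2 called 8 of 8, but without the libraries poor in 18S sequence edgeR called 0 of 8, although all kept their direction, with adjusted p from 0.0559 to 0.0928. With the hemoglobin share as a covariate, edgeR called 0 of 8, Rsad2 stood at -0.33 and Isg15 changed sign. Library totals in place of TMM left 4 of 8 calls, with Cd274 and Ifit2 changing sign, and DESeq2's size factors in edgeR left 6, without Ifngr1 and Ifngr2. With 1 library left out, between 2 and 8 of the 8 were called. The count was 2 without early 4, late 3, late 4 or late 5, 4 without early 2, and 6 without early 1 or late 1. Cd274 and Rsad2 were called in 10 of 10 such fits. Against the untreated group, where 2.01% of all genes were called lower, late ND was called lower for Rsad2 (-2.42, edgeR's adjusted p = 0.025) and Isg15 (-2.01, edgeR's adjusted p = 0.0271), each lost in 8 of 10 fits with 1 library left out, and for no gene of the other 3 lists. Without the libraries poor in 18S sequence neither was called (edgeR's adjusted p = 0.129 and 0.138), nor with the hemoglobin share as a covariate. Early ND against untreated gave 0 calls in any of the 4 lists.

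The cell types of blood that could carry these transcripts also differed between the ND groups. Of 8 tested erythroid genes 5 were lower in late ND (among them Hbb-bt, Alas2, Slc4a1 and Epb42, median of the 8 on the log2 scale -2.41). Of 10 neutrophil genes 1, Mmp8, was called higher, and 8 were higher at an unadjusted p under 0.05 in edgeR's test (median 1.09). T cell genes, 9 in all, had a median of -0.27, 7 NK cell genes of -0.19 and 7 B cell genes of -0.37, with 0 called in each list by edgeR and 2, 1 and 0 at an unadjusted p under 0.05. The summed level of the T cell genes was 239.9 to 286.1 CPM in late ND, 211.3 to 391.1 in early ND and 291.2 to 431.2 in untreated libraries, and that of the NK cell genes 84.7 to 110.5, 74.3 to 167.9 and 78.0 to 168.6 CPM. The neutrophil sum was 5902 to 15760 CPM in late ND and 2495 to 7687 CPM in early ND. Defining genes of these types were above 0 in each group. Genes of skin and sebaceous gland summed to 73.9 to 1120 CPM over the 15 libraries. These came mainly from Scd3, Elovl3, Mgst1 and Far2, while each of the 4 keratin genes of the list stayed at or below 3.64 CPM and Awat1 was at 0 in every library. Against the untreated group, edgeR called 3 of 8 monocyte genes higher (Ccr2, Csf1r and Cd68) in late ND and 4 of 8 erythroid genes and 1 of 9 T cell genes (Cd3g) lower. Of all 13547 genes tested, 134 were called higher and 272 lower. At an unadjusted p under 0.05 in edgeR's test, 7 of 8 monocyte genes were higher. By the same rule 8 of 8 erythroid and 8 of 9 T cell genes were lower, with a T cell median of -0.43, and 0 NK cell, B cell or neutrophil genes differed. Of all genes, 1177 were higher and 1122 lower. For early ND against untreated edgeR called 0 marker genes, and 10 of 10 neutrophil genes were below 0, with a median of -1.02 and 6 at an unadjusted p under 0.05. Of all 12151 genes in that comparison, 6124 were below 0 and 283 were lower at an unadjusted p under 0.05. The part of cell composition in the levels of the GTPase genes was not tested.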

How the data were processed

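The authors deposited whole-number counts of read pairs per gene, made from paired-end reads of whole-blood RNA with STAR 2.7.9, SAMtools 1.7 and HTSeq 0.13.5 on GRCm39, per the labels; the submitters' processing notes also name mm10. The counts were not normalized. Of 55416 identifiers, 54749 matched GENCODE vM39, from which symbols, positions and exon lengths came. The closing rows of each table that name no gene were left out of library sizes; reads counted to genes were 43.6% to 48.0% of uniquely placed reads. Each pair of groups was fitted alone with edgeR 4.0.16 in R 4.3.3 (filterByExpr, TMM, quasi-likelihood test, no covariate), with Benjamini-Hochberg adjustment over all genes tested and a threshold of 0.05. CPM shown per library was scaled by TMM over all 15 libraries; log2 CPM used a prior count of 2. RPKM divided CPM by the exon length. DESeq2 1.42.0 was an alternative. The fit was tested on simulated data for late against early ND. There 134 of 200 genes changed by 1 on the log2 scale were recovered among 13216 genes, with 5 false calls. That change was larger in size than the median of the GTPase genes, -0.49, and recovery of smaller changes was not tested.

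All members were described; of the pathway lists, genes with an adjusted p under 0.05 (at most 4 per list and comparison) and Ifng, Ifngr1, Ifngr2, Irf1 and Ciita were named, and some genes the rule names are not reported here; the marker genes given by name were chosen after their values were seen. The members and lists were chosen with earlier results of these data known. Of the list symbols, 2 family genes, 1 type I target and 1 erythroid gene had no match. Each library is taken as 1 mouse, so p-values measure the spread between these libraries. Intervals cover only that spread.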

Additional observations from a re-analysis of the deposited data

Results flagged for a closer look

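In 6 of the 30 combinations of gene and group, 1 library stood far from the other 4 by Dixon's criterion (critical value 0.71), where chance gives about 1 in 20. Untreated 4 was the high library in 4 of them, with 104 CPM of Gbp2 (next highest untreated library 41.0), 31.3 CPM of Gbp3 (15.3), 62.7 CPM of Irgm1 (38.2) and 76.9 CPM of Irgm2 (47.6). Late 1 was the high library in the other 2, with 32.6 CPM of Gbp3 (next highest late ND library 17.0) and 79.4 CPM of Igtp (57.7). No library stood apart in this way in the early ND group. The genes varied together in the same libraries, so the 30 combinations are not independent. The 6 can therefore not be judged against 1 in 20.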

How the results depend on the processing

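The count of GTPase genes called, 0 in each comparison, became for late against early ND 4 with DESeq2's Wald test, 2 (higher, Gbp7 and Irgm2) with library totals in place of TMM, 1 (Igtp, adjusted p = 0.0462) with at least 10 counts in every library, and 0 to 3 with 1 library left out; for late ND against untreated it became 2 (higher) with library totals and stayed at 0 with any library left out, and for early ND against untreated it was 0 under every alternative run. With library totals the median of all tested genes became 0.86 and 0.91 on the log2 scale in the comparisons with late ND. With them the late against early ND values of Gbp2, Gbp3, Gbp5, Gbp7, Gbp9, Igtp, Irgm1, Irgm2 and Ifi47 turned to 0.57, 0.55, 0.0355, 0.76, 0.24, 0.27, 0.47, 0.83 and 0.40, with Cd274 at 0.16 and Ifit2 at 0.0140, and those of late ND against untreated for Gbp2, Gbp3, Gbp5, Gbp7, Gbp9, Igtp, Irgm1, Iigp1 and Ifi47 to 0.59, 0.80, 0.72, 0.82, 0.77, 0.50, 0.78, 0.0401 and 0.49, all of the 9 below that median. With the hemoglobin share as covariate, late against early ND turned to 1.07, 0.67, 0.0364, 0.89, 0.77, 0.79, 0.20 and 0.74 for Gbp2, Gbp3, Gbp5, Gbp7, Irgm1, Irgm2, Iigp1 and Ifi47 (Isg15 0.49), and late ND against untreated to 0.45, 0.32, 0.14, 0.34, 0.0689 and 0.28 for Gbp2, Gbp3, Gbp5, Gbp7, Gbp9 and Irgm1. Without the libraries poor in 18S sequence, Gbp2, Gbp7 and Irgm2 turned to 0.0346, 0.11 and 0.15 for late against early ND, Gbp7 to 0.18 for late ND against untreated and Gbp2 to -0.0201 for early ND against untreated. With no filter on low counts, Irgm2 turned to 0.0594 for late against early ND and Gbp7 to 0.0282 for late ND against untreated. The shares of all genes called under these alternatives are not given here, and the cause of the changes was not tested.

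With 1 library left out, the values that changed sign were, for late against early ND, Gbp7 (-0.48 to 0.0364) and Irgm2 (-0.24 to 0.10); for late ND against untreated, Gbp2 (-0.69 to 0.20), Gbp3 (-0.44 to 0.22), Gbp7 (-0.38 to 0.27), Irgm1 (-0.41 to 0.11) and Irgm2 (-0.10 to 0.31); and for early ND against untreated, Gbp2 (-0.0929 to 0.51), Gbp7 (-0.0226 to 0.37) and Ifi47 (-0.0384 to 0.35). Gbp5, Gbp9, Igtp and Iigp1 kept their sign in all 3 comparisons with any library left out. The replicate block, with the replicate number as a block, called 0 GTPase genes in each comparison, and 6 of the 8 interferon-list genes for late against early ND (not Ifngr1 and Isg15). The main fits did not pair the libraries by number. Deviations of same-numbered libraries correlated at -0.17 to 0.46 for late against early ND (mean -0.01, other pairs 0.003). For early ND against untreated they correlated at -0.29 to 0.08 (mean -0.12, other pairs 0.03). For late ND against untreated they correlated at 0.03 to 0.58 (mean 0.24, other pairs -0.06). In the order late against early ND, late ND against untreated and early ND against untreated, 1, 3 and 0 of 5 libraries correlated best with their own number. Same-numbered late ND and untreated libraries were thus more alike than other pairs, and the reason was not tested. The alternatives for the interferon lists were chosen after seeing the data. Depth limits Iigp1, at 2 to 61 counts per library, and Ifng, at 0 to 7.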
